A study of Mus musculus with 11 samples.

Results

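The 9 genes described here receive, hold back or pass on the Hedgehog signal in a cell and were chosen by name: the co-receptors Gas1, Cdon and Boc, the receptor Ptch1, the secreted-ligand antagonist Hhip, the signal transducer Smo and the transcription factors Gli1, Gli2 and Gli3. All 9 were found among the 24421 gene symbols of both count tables. Transcript levels were measured by RNA sequencing in 11 mouse libraries, each from its own animal. Cre recombinase, active after tamoxifen, is driven from Hic1 in these mice, and tdTomato reports its action. WTlFlox mice have 1 beta-catenin allele with loxP sites around exon 3, and WT mice have no such allele. Loss of exon 3 leaves a beta-catenin protein that escapes degradation, so the comparison of WTlFlox with WT asks what stabilised beta-catenin does where Hic1 drives the Cre. Tamoxifen was given to the mice of both genotypes, per the labels, and their muscle was at rest. The labels do not say separately whether the WT mice used for lysates carry the Cre and the reporter.

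Sorted mesenchymal progenitors (CD45-, CD31-, Sca1+, tdTomato+, alpha7- cells of hindlimb muscle, also called fibro/adipogenic progenitors) came from 3 WTlFlox and 3 WT mice. WTlFlox animals 74A1 and 72B7 and all 3 WT animals were taken at day 14 after tamoxifen, and WTlFlox animal 74A3 at day 56. Whole lysate of the tibialis anterior muscle came from 3 WTlFlox and 2 WT mice, all at day 56. Material therefore changes together with RNA kit, count table and the muscle taken, and within WT also with day, and these cannot be told apart. The deposited sample tables give progenitor animals 74A1 (WTlFlox) and 74A2 (WT) as female and all other animals, with every lysate animal, as male. Within WTlFlox, progenitor library 74A3 shares day 56 with the lysates. The sort keeps only cells in which the Hic1-driven Cre had switched on the reporter, while the lysate mixes them with fibres and every other cell of the muscle. Total counts were 13119843 to 16805238 in the 6 progenitor libraries and 16892158 to 19449227 in the 5 lysate libraries.

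In the pathway, a Hedgehog ligand bound to Ptch1 together with Gas1, Cdon or Boc releases Smo from inhibition, and Smo then acts through the primary cilium to turn Gli factors into activators. Gli1, Ptch1 and Hhip are themselves targets of the pathway in many tissues, and Ptch1 and Hhip hold the signal back. In skeletal muscle such progenitors can carry a primary cilium, and Dhh made by Schwann cells of the nerve is a known ligand.

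Of the 9 genes, Cdon and Gas1 were higher and Hhip was lower in WTlFlox progenitors than in WT progenitors, while the other 6 were not called. RefSeq promoter windows (assembly GRCm38.p6, 250 bases before to 50 bases after the annotated start) matched 7 of the 9 genes, and those of the 3 genes that differed are shown so that the regions ahead of them can be compared. The strand is that of the gene, and the capital marks the first transcribed base as the RefSeq entry has it. The windows are chr13:60177486-60177785 (minus strand) for Gas1, chr9:35451826-35452125 (plus strand) for Cdon and chr8:80057959-80058258 (minus strand) for Hhip.
Gas1: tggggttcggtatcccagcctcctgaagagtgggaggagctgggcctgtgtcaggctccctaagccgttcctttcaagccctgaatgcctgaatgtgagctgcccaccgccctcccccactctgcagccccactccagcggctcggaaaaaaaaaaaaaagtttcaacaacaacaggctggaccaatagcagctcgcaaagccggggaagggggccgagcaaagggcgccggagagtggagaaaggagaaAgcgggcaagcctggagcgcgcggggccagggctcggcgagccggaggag
Cdon: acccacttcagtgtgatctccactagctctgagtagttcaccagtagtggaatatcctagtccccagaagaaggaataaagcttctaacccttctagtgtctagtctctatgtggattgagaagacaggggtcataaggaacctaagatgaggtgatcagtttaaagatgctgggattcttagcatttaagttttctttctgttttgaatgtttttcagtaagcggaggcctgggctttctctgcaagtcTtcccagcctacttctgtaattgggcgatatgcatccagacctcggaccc
Hhip: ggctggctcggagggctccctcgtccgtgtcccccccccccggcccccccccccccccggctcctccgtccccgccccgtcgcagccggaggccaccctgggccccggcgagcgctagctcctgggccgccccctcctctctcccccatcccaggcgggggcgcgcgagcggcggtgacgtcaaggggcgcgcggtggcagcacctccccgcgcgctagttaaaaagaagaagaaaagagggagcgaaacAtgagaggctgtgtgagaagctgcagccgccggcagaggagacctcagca
These windows differ in base composition: 62.3% of bases were G or C ahead of Gas1, 44.7% ahead of Cdon and 73.7% ahead of Hhip, where the median of all RefSeq promoter windows was 52.7%. The Cdon window lies within the Cdon gene as GENCODE draws it, since that annotation has starts further upstream. The Gas1 window, with its marked base, lies wholly upstream of the Gas1 gene as GENCODE draws it (60174405 to 60177365). The TCF/LEF letters CTTTGAT and the GLI letters GACCACCCA, searched on both strands, were in 0 of the 7 windows. Across 32851 windows of the same length, CTTTGAT was in 3.73% and GACCACCCA in 0.253%.

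Sorted progenitors had the markers of their label. The 8 progenitor markers (Pdgfra, Ly6a, Cd34, Dcn, Lum, Dpt, Hic1 and Col1a1) were detected in both groups. They took 4.29% to 4.66% of counts in WTlFlox and 2.90% to 3.51% in WT, with no overlap. Gene by gene, 2 of the 8 were higher and 1 lower (Pdgfra, log2 -0.47) in WTlFlox without overlap, beside 16.9% of all genes in either direction. Of the 8 marker lists, 6 had shares of counts that did not overlap between the genotypes. Tendon markers were the other list with the larger share in WTlFlox, at 0.166% to 0.213% against 0.111% to 0.157% in WT. Of the 6 tendon markers 2 were called higher, Mkx (log2 1.28) and Thbs4 (log2 0.90), where 2.34% of all genes were. The median of the 6 was log2 -0.54, and Fmod (log2 -1.57) was lower without overlap and not called. The share was smaller in WTlFlox for 4 lists. Myofibre markers stood at 0.00335% to 0.00616% in WTlFlox and 0.00649% to 0.0192% in WT, and endothelial markers at 0.0254% to 0.0311% in WTlFlox and 0.0349% to 0.0472% in WT. Of the 8 myofibre markers tested, 7 had an unadjusted p under 0.05 by edgeR, all lower, beside 12.5% of all genes. Of these 8, edgeR called 0 and DESeq2 called 3, and all 8 overlapped between the genotypes. Mural markers stood at 0.0109% to 0.0169% in WTlFlox and 0.0185% to 0.0290% in WT, and muscle stem cell markers at 0.00303% to 0.00365% in WTlFlox and 0.00499% to 0.00567% in WT. Of the 7 muscle stem cell markers, Myf5, Calcr and Cdh15 had 0 counts in both groups and Pax7 had 2 counts in WTlFlox and 1 in WT, while Vcam1 made up 74.6% of the list's counts in WTlFlox and 74.3% in WT. Single markers of the other lists were called in both directions. Kdr (log2 4.23) of the endothelial list and Col1a1 (log2 1.16) of the progenitor list were higher in WTlFlox. Tek (log2 -1.31) of the endothelial and Cspg4 (log2 -2.24) of the mural list were lower. The part of these shifts in the results was not tested. Axin2, a target of beta-catenin, was 5.47 log2 units higher in WTlFlox progenitors (SE 0.22, adjusted p = 4.37e-06, edgeR quasi-likelihood test with Benjamini-Hochberg adjustment over all genes, as for every adjusted p here), while Ctnnb1 itself differed by -0.26 (SE 0.17, adjusted p = 0.673). Counts per gene do not read the deletion of an exon.

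Of the co-receptors, 2 of 3 were called. Gas1 (ENSMUSG00000052957, chromosome 13: 60174405 to 60177365 on GRCm38, minus strand), a membrane-anchored protein that binds ligand, had 1039.8, 1229.8 and 1289.9 CPM (counts scaled to library size with TMM) in WTlFlox progenitors 74A1, 72B7 and 74A3, against 449, 543 and 506 CPM in WT progenitors 72B8, 74A2 and 73C3. Every WTlFlox library stood above every WT library. The fold change was 2.37 (log2 1.25, SE 0.19, adjusted p = 0.00443).

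Cdon (ENSMUSG00000038119, chromosome 9: 35421128 to 35507652, plus strand), an immunoglobulin-family co-receptor, had 957, 976 and 1155 CPM in WTlFlox progenitors 74A1, 72B7 and 74A3, against 385, 319 and 392 CPM in WT progenitors 72B8, 74A2 and 73C3. The groups did not overlap, and the day 56 library was the highest. Cdon was 2.82-fold higher in WTlFlox (log2 1.49, SE 0.19, adjusted p = 0.00183).

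Boc (ENSMUSG00000022687, chromosome 16: 44485049 to 44558897, minus strand), the close relative of Cdon, had 141, 186 and 191 CPM in WTlFlox progenitors and 186, 145 and 157 CPM in WT progenitors. The groups overlapped, with a log2 difference of 0.09 (SE 0.18, adjusted p = 0.979). Among the 3 co-receptors, per kilobase of exon, Gas1 made up 69.3% to 71.2% of the sum in WTlFlox and 62.4% to 71.3% in WT progenitors. Boc made up 6.26% to 7.16% in WTlFlox and 12.7% to 17.2% in WT, with no overlap between the groups. The sum holds the higher Gas1 and Cdon of WTlFlox, so this share is no separate result on Boc.

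The genes that hold the signal back were low. Hhip (ENSMUSG00000064325, chromosome 8: 79965851 to 80058006, minus strand), a protein that binds and sequesters ligand, had 11.2, 7.81 and 11.1 CPM in WTlFlox progenitors 74A1, 72B7 and 74A3, against 22.3, 27.1 and 29.4 CPM in WT progenitors 72B8, 74A2 and 73C3. Every WTlFlox library lay below every WT library. Hhip was 2.62-fold lower in WTlFlox (log2 -1.39, SE 0.20, adjusted p = 0.00361).

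Ptch1 (ENSMUSG00000021466, chromosome 13: 63508328 to 63573598, minus strand), the receptor and a target of the pathway, had 9.54, 16.5 and 11.4 CPM in WTlFlox progenitors and 21.8, 12.4 and 15.0 CPM in WT progenitors. The groups overlapped, and the log2 difference of -0.39 was not called (SE 0.27, adjusted p = 0.728). Summed per kilobase, the 3 co-receptors stood at 265, 288 and 310.0 times the sum of Ptch1 and Hhip in WTlFlox progenitors 74A1, 72B7 and 74A3, against 61.0, 66.8 and 59.9 times in WT progenitors 72B8, 74A2 and 73C3. This ratio was put together after the values were known and is given without a test.

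Smo, the seven-pass transducer (ENSMUSG00000001761, chromosome 6: 29735503 to 29761365, plus strand), varied little between libraries. It had 109.8, 116 and 110.2 CPM in WTlFlox progenitors and 112, 103 and 114 CPM in WT progenitors, with a log2 difference of 0.03 (SE 0.14, adjusted p = 0.996).

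The Gli factors were not called. Gli1 (ENSMUSG00000025407, chromosome 10: 127329882 to 127341974, minus strand), an activator and the usual readout of the pathway, had 24.1, 32.4 and 23.4 CPM in WTlFlox progenitors and 24.4, 33.7 and 16.9 CPM in WT progenitors. The 2 sets of values lay across each other, and the log2 difference was 0.09 (SE 0.25, adjusted p = 0.987). Gli1 overlaps Arhgap9 on the opposite strand, and since the strand setting of the counting is not given, reads of the pair could be mixed.

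Gli2 (ENSMUSG00000048402, chromosome 1: 118834132 to 119053619, minus strand), the main activator, ranged over 34.3 to 47.5 CPM in WTlFlox and 22.9 to 42.7 CPM in WT progenitors (log2 0.36, SE 0.23, adjusted p = 0.692). Gli3 (ENSMUSG00000021318, chromosome 13: 15463235 to 15730026, plus strand), best known as a repressor, ranged over 54.5 to 77.1 CPM in WTlFlox and 43.1 to 86.8 CPM in WT (log2 -0.05, SE 0.25, adjusted p = 0.996). Both pairs of groups overlapped.

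In all, 2 of the 9 genes were called higher and 1 lower. Over the 12392 genes tested in progenitors, 3.66% were called, 2.34% higher and 1.32% lower, and the median log2 difference was 0.00 over those genes and 0.09 over the 9. The libraries of the genotypes did not overlap for 3 of the 9 genes, and for 16.9% of all genes tested. The 3 calls held in 16 of 16 alternative analyses each, including those without the day 56 library 74A3. The number of genes called over the whole table was less steady, at 454 with all libraries, 266 without 72B7, 262 without 74A3 and 752 with DESeq2.

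**Figure D1:**
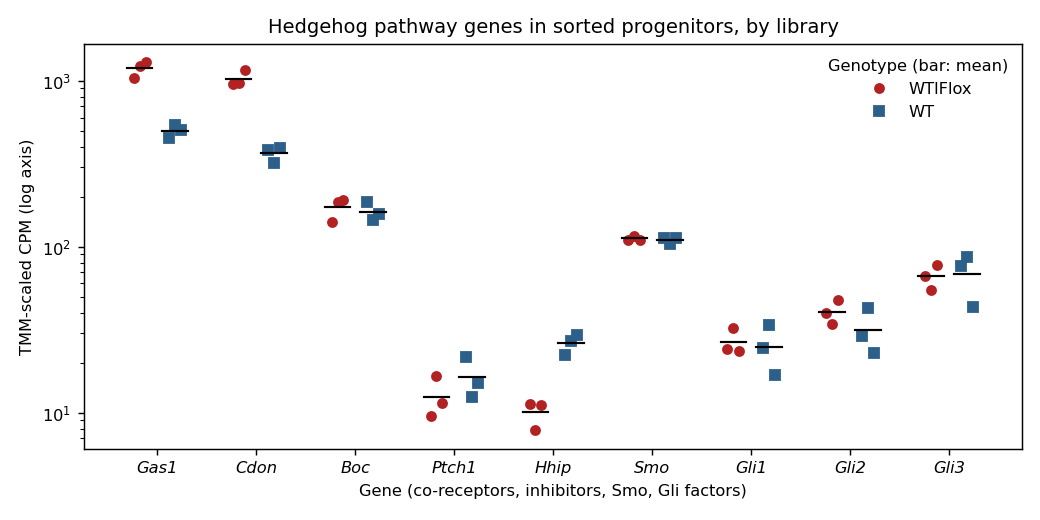
TMM-scaled CPM (log axis) of the 9 genes in sorted progenitors, 1 point per library, WTlFlox (circles) and WT (squares), with a bar at each mean. Gas1 and Cdon stand higher and Hhip lower in WTlFlox with no overlap, and the points of the other 6 genes overlap.

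Ordered by level per kilobase of exon, WT progenitors had Gas1 first (169 CPM per kb, SD 15.9, n = 3), then Cdon (47.4), Boc (36.6), Smo (19.5), Gli3 (7.15), Gli1 (5.01), Gli2 (4.59), Hhip (2.89) and Ptch1 (1.15). Neighbours overlapped between libraries for Cdon and Boc and among the Gli factors, and the other neighbours did not. In WTlFlox progenitors the order opened with Gas1 (401 CPM per kb, SD 44.1, n = 3), Cdon (133) and Boc (38.8), with no overlap between these, and ended with Hhip (1.11) and Ptch1 (0.881), which overlapped. Exon lengths are the union of annotated exons, so a gene with long unused exons is placed too low by this measure, and Ptch1 had the longest union of the 9.

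Ligand transcripts were few. Shh had 0 counts in each of the 11 libraries, which at 3 counts per library allows up to 0.154 to 0.229 CPM, for counting error only. Ihh summed to 2 counts over 3 WTlFlox and 1 count over 3 WT progenitor libraries, and Dhh to 12 counts in WTlFlox and 8 in WT, too few to be tested.

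Of 8 listed genes for making, releasing or binding the ligand, 5 were tested, with 1 higher and 0 lower, beside 2.34% and 1.32% of all genes tested. Their median log2 difference was -0.28, beside 0.00 over all genes. At an unadjusted p under 0.05 stood 2 of the 5, 1 higher and 1 lower, beside 12.5% of all genes. The lower one, Hhat, was not called (log2 -0.50, SE 0.21, adjusted p = 0.358). Scube1, whose protein family helps release ligand from the cells that make it, had 34.5, 32.0 and 26.6 CPM in WTlFlox progenitors 74A1, 72B7 and 74A3, against 4.22, 3.71 and 2.24 CPM in WT progenitors 72B8, 74A2 and 73C3. All WTlFlox values were far above all WT values, a 9.21-fold difference (log2 3.20, SE 0.25, adjusted p = 9.00e-05) that held in 16 of 16 alternatives. Gpc3, a glypican that competes for ligand, was the most abundant per kilobase of the list and was not called (log2 -0.39, SE 0.28, adjusted p = 0.762), nor was the ligand transporter Disp1 (log2 -0.20, SE 0.20, adjusted p = 0.897).

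Among reported targets of the pathway other than the 9 genes, 10 of 12 were tested, with a median of -0.31. Of these 1 was called higher (Ccnd1) and 0 lower, beside 2.34% and 1.32% of all genes tested. Ccnd1, cyclin D1, which many other signals also drive, had 132, 86.6 and 152 CPM in WTlFlox progenitors, against 38.0, 16.6 and 35.4 CPM in WT progenitors (log2 2.04, SE 0.32, adjusted p = 0.00743). The groups did not overlap, and the call was lost when the first part of the animal identifier was a term in the fit (log2 2.22, adjusted p = 0.146). The most abundant targets per kilobase were Timp3 (log2 -0.62, SE 0.21, adjusted p = 0.195), Osr1 (log2 -0.41, SE 0.15, adjusted p = 0.224) and Snai1 (log2 -0.54, SE 0.22, adjusted p = 0.328), none of them called. At an unadjusted p under 0.05 stood 6 of the 10 targets, 1 higher (Ccnd1) and 5 lower (Timp3, Osr1, Snai1, Foxf1 and Cntfr), beside 12.5% of all genes tested in progenitors. Cntfr, a receptor for ciliary neurotrophic factor, had 20.2, 37.0 and 22.2 CPM in WTlFlox progenitors 74A1, 72B7 and 74A3, against 48.7, 49.8 and 42.9 CPM in WT progenitors 72B8, 74A2 and 73C3. Its groups did not overlap, and edgeR did not call it (log2 -0.83, SE 0.23, adjusted p = 0.0942). DESeq2 called Ccnd1 higher and 2 targets lower, Timp3 (adjusted p = 0.0444) and Cntfr (adjusted p = 0.0215), beside 5.55% of all genes called in either direction. With edgeR 1 target was called lower without a filter, without 72B7, with the identifier term and in a fit joint with the lysates.

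Downstream of the receptors, 0 of 16 cytoplasmic genes of the pathway and 0 of 15 genes for transport in the cilium were called by edgeR, with 0 in either list by DESeq2. At an unadjusted p under 0.05 stood 2 of the 16 and 0 of the 15, beside the 12.5% of all genes. The medians were 0.01 and -0.02. The most abundant per kilobase were Spop, an adaptor for Gli degradation (log2 -0.12, SE 0.19, adjusted p = 0.963), Prkaca, a catalytic subunit of protein kinase A (log2 -0.05, SE 0.15, adjusted p = 0.990), and the ciliary protein Evc (log2 -0.03, SE 0.16, adjusted p = 0.996). Of the transport list they were the kinesin Kif3a (log2 0.07, SE 0.21, adjusted p = 0.992), Arl13b (log2 -0.09, SE 0.16, adjusted p = 0.967) and Ift57 (log2 -0.18, SE 0.14, adjusted p = 0.811).

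**Figure D2:**
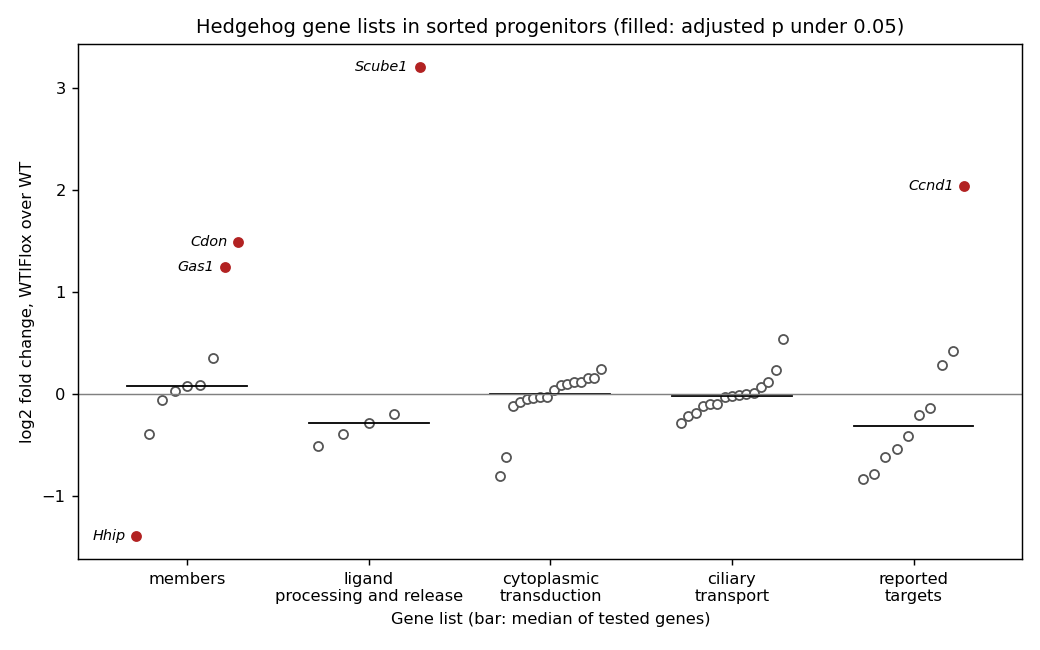
Log2 fold change of WTlFlox over WT progenitors for each tested gene of 5 gene lists, with called genes filled and named and a bar at each median. Scube1 (3.20) and Ccnd1 (2.04) stand above the rest of their lists, while the cytoplasmic and ciliary lists hold no called gene.

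In whole muscle lysate all 9 genes were detected, and Gas1 alone was called. It had 45.1, 36.5 and 43.0 CPM in WTlFlox lysates 71B3, 71B4 and 71B5, against 18.9 and 22.9 CPM in WT lysates 73A5 and 73A7. Every WTlFlox library was above both WT libraries, and Gas1 was 1.99-fold higher (log2 0.99, SE 0.16, adjusted p = 0.0487). All WTlFlox lysates came from animals whose identifiers begin 71B and both WT lysates from animals whose identifiers begin 73A, so identifier series and genotype cannot be told apart here. In bulk samples such as these, a change in the number of cells of a type and a change in RNA per cell cannot be told apart. The log2 difference of Gas1 stayed between 0.86 and 1.13 in 13 alternatives, and it was called in 5 of them. Adjusted p was 0.0651 without 73A5, 0.122 without 71B3, 0.139 without 71B4, 0.242 without 71B5, 0.0783 with scaling by total counts, 0.0545 with a stricter filter and 0.0506 with limma voom. With the replicate numbers of the deposited sample table as a block it was 0.0980.

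Progenitor markers took 0.110% to 0.122% of counts in WTlFlox lysates and 0.0568% to 0.0847% in WT lysates, with 0 of 8 of them called by edgeR and a median log2 difference of 0.25. At an unadjusted p under 0.05 stood 2 of the 8, both genes of the extracellular matrix, beside 9.69% of all genes. Dcn differed by log2 0.79 (SE 0.19, adjusted p = 0.152, and called by DESeq2) and Col1a1 by log2 0.71 (SE 0.27, adjusted p = 0.427). For 3 of the 8 (Dcn, Col1a1 and Hic1) every WTlFlox lysate was above both WT lysates, where 25.3% of all genes did not overlap in either direction. Hic1 differed by log2 0.25 (SE 0.19, adjusted p = 0.780). Muscle stem cell markers took 0.0129% to 0.0134% of counts in WTlFlox lysates and 0.0153% to 0.0178% in WT lysates, and the other 6 marker lists overlapped. Itga7 made up 64.4% of the stem cell list's counts in WTlFlox and 75.3% in WT lysates. It differed by log2 -0.68 (SE 0.16, adjusted p = 0.135, and called by DESeq2). The median of the 6 tested was log2 0.04. Differences were positive for Pax7 (0.28), Myf5 (0.10) and Cdh15 (0.15), and negative for Vcam1 (-0.22) and Chodl (-0.02). The part of these marker levels in the Gas1 difference was not tested.

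Cdon had 18.8, 19.4 and 20.0 CPM in WTlFlox lysates 71B3, 71B4 and 71B5, against 16.6 and 11.5 CPM in WT lysates 73A5 and 73A7. The values did not overlap but lay close, and the log2 difference of 0.46 was not called (SE 0.18, adjusted p = 0.446).

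Smo had 5.06, 6.19 and 6.84 CPM in WTlFlox lysates, against 3.95 and 3.01 CPM in WT lysates. These did not overlap either, and the log2 difference of 0.79 was not called (SE 0.23, adjusted p = 0.271). Ptch1 in WT lysates was 7.60 CPM in 73A5 and 1.99 CPM in 73A7, while the WTlFlox lysates had 3.95, 5.23 and 6.94 CPM, all between these (log2 0.16, SE 0.49, adjusted p = 0.962).

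Hhip was close to the limit of the lysate data, with 12, 14 and 12 counts in WTlFlox and 9 and 11 counts in WT libraries, or 0.574 to 0.747 CPM and 0.539 to 0.705 CPM (log2 0.07, SE 0.39, adjusted p = 0.982). Boc had 5.06 to 6.36 CPM in WTlFlox and 4.68 to 7.18 CPM in WT lysates (log2 -0.02, SE 0.24, adjusted p = 0.994). The Gli factors lay between 1.26 and 2.49 CPM in WTlFlox and between 1.08 and 2.69 CPM in WT lysates, with log2 differences of -0.37 for Gli1, 0.14 for Gli2 and 0.46 for Gli3, none called. At 18 to 52 counts per library for these 3 genes, a small difference was not detectable.

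In the lysates 1 of the 9 genes was thus called higher and 0 lower, with 3 of the 9 at an unadjusted p under 0.05 (Gas1, Smo and Cdon) and 1 called by DESeq2, beside 9.69% and 2.13% of all genes. Of 12654 genes tested by edgeR, 0.727% were called, 0.514% higher and 0.213% lower, and the median log2 difference was 0.16 over the 9 genes and 0.00 over all. Genotypes did not overlap for 3 of the 9 genes and for 25.3% of all genes. The whole-table count was 92, with 239 without 73A5, 207 without 73A7, 25 without 71B4 and 0 without 71B5, where 1023 genes had an unadjusted p under 0.05.

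**Figure D3:**
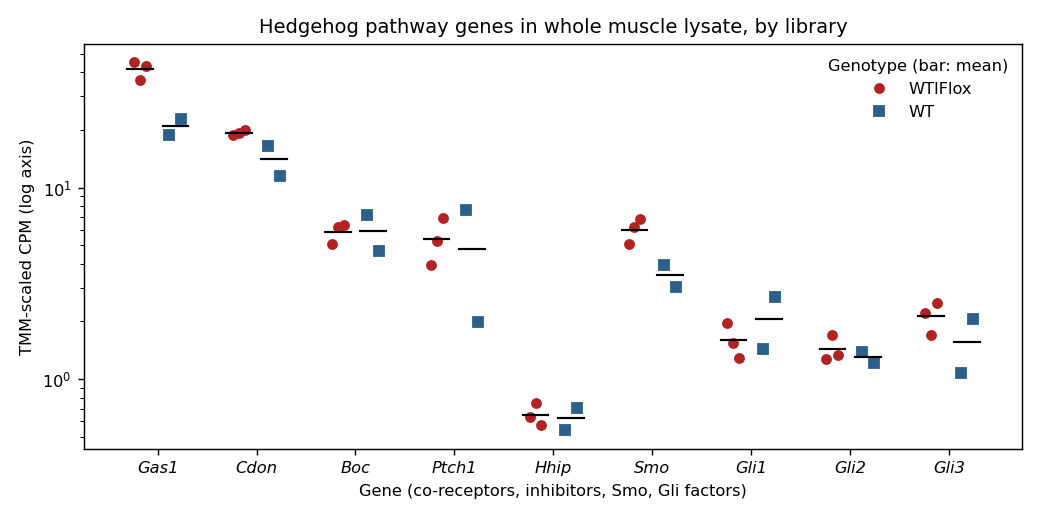
TMM-scaled CPM (log axis) of the 9 genes in whole muscle lysate, 1 point per library, WTlFlox (circles, n = 3) and WT (squares, n = 2), with a bar at each mean. Gas1, Cdon and Smo do not overlap between genotypes, and the Ptch1 points of WT lie far apart at 7.60 and 1.99 CPM.

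The other pathway lists gave no call in the lysates by edgeR or DESeq2. Dhh had 1.21, 1.65 and 1.39 CPM in WTlFlox lysates 71B3, 71B4 and 71B5, against 1.26 and 1.60 CPM in WT lysates 73A5 and 73A7, values that lay across each other (log2 -0.01, SE 0.30, adjusted p = 0.996). Ihh summed to 12 counts over 3 WTlFlox and 7 counts over 2 WT lysates. The tested numbers were 5 genes for making, releasing or binding ligand, 14 cytoplasmic genes, 15 ciliary genes and 9 targets, of which 1, 0, 1 and 3 had an unadjusted p under 0.05, where 9.69% of all genes did. Scube1 had 1.53, 1.71 and 2.11 CPM in WTlFlox lysates, against 0.359 and 0.961 CPM in WT lysates, without overlap and without a call (log2 1.44, SE 0.43, adjusted p = 0.284). The most abundant genes per kilobase differed by log2 -0.07 (Gpc3), 0.12 (Disp1) and -0.36 (Scube2) in the ligand list, and by 0.04 (Spop), -0.32 (Prkaca) and 0.05 (Cul3) in the cytoplasmic list. In the ciliary list they differed by 0.23 (Ift52), 0.14 (Ift172) and -0.09 (Kif3a), and among the targets by -0.24 (Timp3), 0.62 (Cntfr) and 0.30 (Ccnd1).

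Whether the genotype difference itself differed between progenitors and lysates was tested as an interaction in 1 fit over the 11 libraries. By edgeR 0 of the 9 genes were called, with 3 at an unadjusted p under 0.05 and 1 (Cdon) called by DESeq2, beside 8.71% and 1.96% of all genes. Over the 13781 genes tested, 0.769% were called, 0.522% with a more positive difference in progenitors and 0.247% with a more negative one. The difference in progenitors minus that in lysates was -1.51 for Hhip (SE 0.42, adjusted p = 0.160), 0.98 for Cdon (SE 0.28, adjusted p = 0.174, and 0.0104 by DESeq2) and -0.81 for Smo (SE 0.25, adjusted p = 0.239). For Gas1 it was 0.20 (SE 0.26, adjusted p = 0.969). The whole-table count of 106 became 54 without 73A7, 61 without 71B4, 66 without 71B3 and 70 without 74A1.

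**Figure D4:**
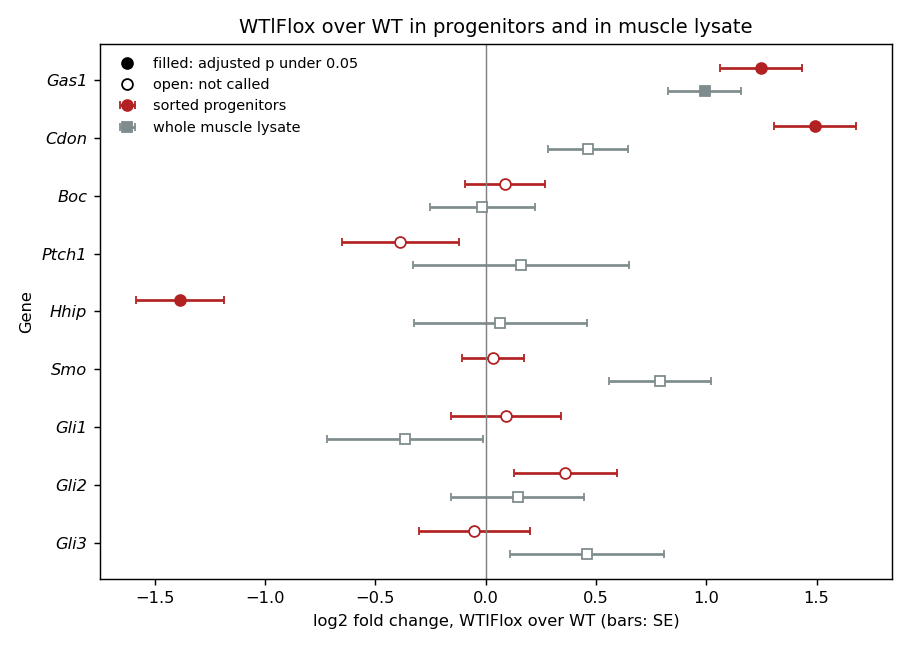
Log2 fold change of WTlFlox over WT with its SE for the 9 genes, in sorted progenitors (circles) and whole muscle lysate (squares), filled where adjusted p was under 0.05. Gas1 is filled in both materials (1.25 and 0.99), and Cdon (1.49) and Hhip (-1.39) in progenitors.

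Across materials the 9 genes were at higher levels in the sorted cells. Within WTlFlox mice 8 of 9 were higher in sorted progenitors than in lysate, where 39.9% of all genes were called higher. Within WT mice 9 of 9 were, where 38.6% of all genes were called higher. The median log2 difference of the 9 was 4.19 in WTlFlox and 4.13 in WT mice, beside 0.05 and 0.09 over all genes tested. Scaling by total counts moved the median of all genes by 0.54 in WTlFlox and by 0.66 in WT, and 9 of 9 genes were then called in each.

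At the same day, and scaled together with the lysates, progenitor library 74A3 had 1046 CPM of Gas1, against 56.8, 45.8 and 53.9 CPM in WTlFlox lysates 71B3, 71B4 and 71B5. Smo had 89.4 CPM in 74A3, against 6.36, 7.76 and 8.57 CPM in those lysates.

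Cdon was 34.5-fold higher in WTlFlox progenitors than in WTlFlox lysate (log2 5.11, SE 0.22, adjusted p = 8.80e-11) and 17.5-fold higher in WT progenitors than in WT lysate (log2 4.13, SE 0.25, adjusted p = 2.71e-09). For Hhip the same ratios were 9.96-fold in WTlFlox (log2 3.32, SE 0.26) and 28.4-fold in WT (log2 4.83, SE 0.31). The interaction given above is the test of these contrasts between genotypes. Gas1 was 18.6-fold higher in WTlFlox and 16.2-fold higher in WT progenitors, and Gli1 was 10.9-fold higher in WTlFlox and 8.13-fold higher in WT progenitors.

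Ptch1 differed least between materials. It was 2.28-fold higher in WT progenitors than in WT lysate (log2 1.19, SE 0.45, adjusted p = 0.0273). That call was lost without 72B8 (log2 0.97, adjusted p = 0.0834). The log2 difference fell to 0.49 without 73A7 and rose to 2.48 without 73A5. The 2 WT lysates are those set apart above at 7.60 and 1.99 CPM. Within WTlFlox mice the log2 difference of 0.60 was not called (SE 0.39, adjusted p = 0.172). It was called with scaling by total counts (log2 1.12, adjusted p = 0.0235), and was 0.34 without 72B7.

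Of the ligands, Dhh ran the other way, with log2 -2.84 (SE 0.52) within WTlFlox and log2 -3.53 (SE 0.59) within WT. Its progenitor counts were too few to be tested by themselves, and it passed the filter of the joint fit only through the lysates. These 2 differences are therefore a description, and no test is drawn from them. Of the cytoplasmic genes 9 of 16 were higher and 6 lower in WTlFlox progenitors than in WTlFlox lysate, and 8 were higher and 6 lower within WT. The higher ones include Gpr161 and Stk36, whose lysate counts were too few to be tested by themselves. Both passed the filter of the joint fit only through the progenitors, so their part of these counts is a description. Over all genes 38.9% were lower within WTlFlox and 37.5% within WT, and the shares called higher were the 39.9% and 38.6% given above. Prkaca was among the lower ones (log2 -1.94, SE 0.16 in WTlFlox, and log2 -2.14, SE 0.17 in WT). Sufu, which holds Gli factors inactive, was among the higher ones (log2 1.39, SE 0.15 in WTlFlox, and log2 1.40, SE 0.17 in WT). Of the ciliary genes 11 of 15 were higher and 1 lower within WTlFlox, and 11 were higher and 0 lower within WT.

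**Figure D5:**
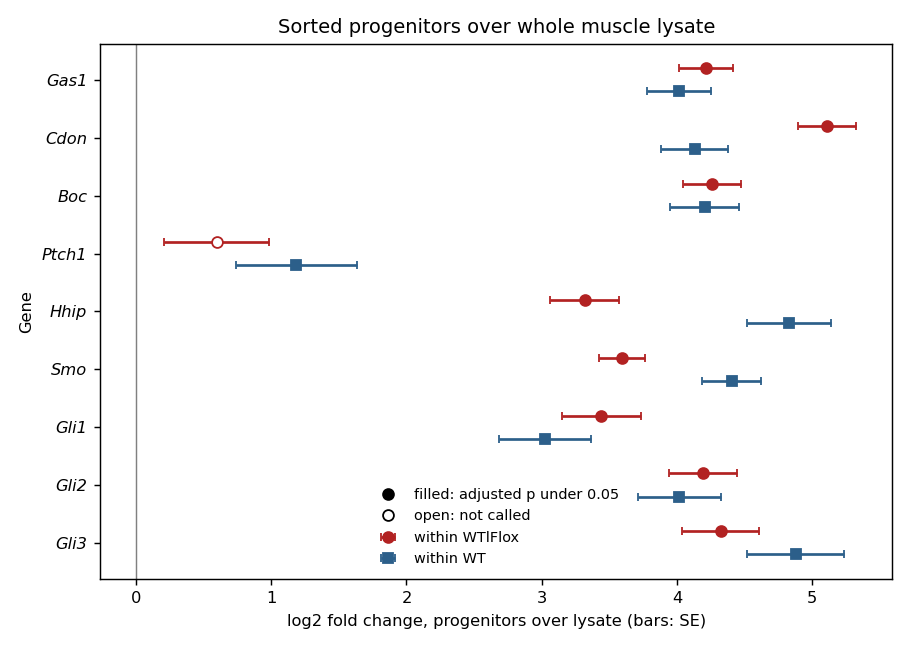
Log2 fold change of sorted progenitors over whole muscle lysate with its SE for the 9 genes, within WTlFlox (circles) and within WT (squares), filled where adjusted p was under 0.05. 8 genes lie between 3.02 and 5.11, and Ptch1 lies at 0.60 in WTlFlox and 1.19 in WT.

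The genes whose log2 CPM ran most like those of the called genes and of Gli1 were listed as a description, without a test. The libraries share genotype and material, so these correlations follow the group means for the most part. Over the 6 progenitor libraries, Gas1 ran closest to Enpp2 (Pearson r 0.996), Masp1 (0.993) and Thbs2 (0.992), and Cdon to Pthlh, Aox3 and Ctsh (0.998, 0.998 and 0.996). Hhip ran closest to Enpp3, Kcns3 and Nelfb (0.996, 0.991 and 0.989), and Gli1 to Brd2, Tnk2 and Nsun5 (0.995, 0.988 and 0.987).

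Among the 9 genes over the same 6 libraries, r was 0.968 between Gas1 and Cdon, -0.936 between Hhip and Gas1 and -0.938 between Hhip and Cdon. Gli1 ran with none of these at a like strength, with r of 0.248 to Gas1, 0.0750 to Cdon and -0.342 to Hhip, and stood at 0.591 to Gli2 and 0.566 to Gli3. Its r was -0.0131 to Ptch1. Gas1, Cdon and Hhip were called between the genotypes and Gli1 was not, so these values follow from the calls for the most part. Over all 11 libraries, which also differ in material, Gas1 ran closest to Thbs2, Enpp2 and Dpysl3 (0.998, 0.998 and 0.997), and Cdon to Enpp2, Ecm2 and Rab30 (0.996, 0.995 and 0.994). Hhip ran closest to Steap3, Aif1l and Arhgap36 (0.994, 0.992 and 0.992), and Gli1 to Plekha4, Mast3 and Meis3 (0.994 each).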

How the data were processed

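The authors deposited 2 tables of raw counts by gene symbol, for sorted progenitors and for lysates. The submitters' processing notes list STAR, Bowtie, bcl2fastq 2.20 and build mm10, without their roles. How reads were counted, and whether by strand, is not given in the sources used. The authors' deposited sample tables give a sex and a replicate number, of which only alternatives make use; those for the lysates call the samples FAPs, where the labels, which were followed, say whole muscle lysate. Both tables had 0 rows that name no gene and 0 columns without a sample.

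Genotypes were compared within each material, and materials and the interaction in a joint fit, with edgeR 4.0.16 in R 4.3.3 (filterByExpr, TMM, robust quasi-likelihood F test, two-sided, Benjamini-Hochberg adjustment, threshold 0.05). The SE is that implied by the F statistic. CPM are TMM-scaled within a material, and CPM per kb use GENCODE M21 exon unions (GRCm38). P-values measure the spread between animals. The genotype fits within each material were also run on simulated counts, drawn without effects of day, sex or identifier. No result above rests on those runs. The 9 genes and the gene lists were chosen with earlier results of these data known. The text names the 9 genes, the called genes and the 3 most abundant tested genes of each list, every ligand, and the 3 closest genes by correlation; others were chosen after their values were seen. Adrbk1 stood for Grk2, and 1 listed gene is not reported here. Alternatives were RLE or total-count scaling, no filter or at least 30 counts, DESeq2 1.42.0, limma 3.58.1 voom, leaving out each library, sex, the identifier's first part, the joint fit, and, added after seeing the data, the replicate number as a block.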

Additional observations from a re-analysis of the deposited data

How the results depend on the processing

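In progenitors the calls of Gas1, Cdon and Hhip held under every alternative tried for them. The count of genes called over the whole table was 752 with DESeq2 and 262 to 483 when each library was left out. In lysates it was 54 with total-count scaling, 139 without a filter, 265 with DESeq2, 178 with the replicate block and 0 to 239 when each library was left out. The number of the 9 genes called higher there was 0 with total-count scaling, with the stricter filter, with limma voom and with the replicate block, and 0 to 1 when each library was left out. For the interaction the count was 269 with DESeq2 and 54 to 114 when each library was left out, and 1 of the 9 genes was called higher with DESeq2.

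Genes never called changed sign, the cause not tested. In progenitors, Gli1 was -0.12 with the identifier term, and Smo was -0.023 with total counts and -0.015 in the joint fit. With a library left out, Gli1 ran over -0.12 to 0.37, Gli3 over -0.30 to 0.15 and Smo over -0.013 to 0.058. In lysates, Boc was 0.11 with total counts, 0.0056 with limma voom and 0.11 with the replicate block. With a library left out there, Gli1 ran over -0.75 to 0.14, Ptch1 over -0.50 to 1.44, Hhip over -0.12 to 0.26 and Boc over -0.29 to 0.33. In the interaction, Boc was -0.074 with total counts, and with a library left out Gli1 ran over -0.073 to 0.79, Ptch1 over -1.89 to 0.093 and Boc over -0.31 to 0.36. Total-count scaling moved the median of all genes by 0.12 in lysates and by -0.13 in the interaction. Fits that leave a single WT lysate assume that it varies like the other group.

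Whether the replicate numbers of the deposited sample table pair the animals is not known. Deviations from group means of same-numbered progenitor libraries correlated at 0.29, 0.03 and -0.13, and those of lysates at -0.02 and -0.48. With so few libraries per group such deviations are bound to each other, so these correlations cannot decide it. Depth limits what the lysates show, since Hhip had 9 to 14 counts per library there.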
